A study of Mus musculus with 4 samples.

Results

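The MHC class II genes examined here are H2-Aa, H2-Ab1, H2-Eb1, H2-DMa, H2-DMb1, Cd74 and Ciita, 7 of the 31950 gene IDs that are listed for both gene expression libraries. They were chosen by name and role, matched by gene ID and followed across barcodes with markers of B cells, dendritic cells, macrophages, innate lymphoid cells (ILCs), stroma, endothelium and epithelium. The libraries hold small intestinal lamina propria cells of 12-week-old WT mice and of A20ZF7 mice, which carry a knock-in point mutation in the zinc finger of A20 (gene Tnfaip3) that binds linear ubiquitin. Each library is a pool of 2 mice made with a 5′ single-cell RNA-Seq kit, after a negative selection meant to keep T cells and ILCs, so the B, myeloid and structural cells described here are those that the selection left behind. With 1 library per genotype there is no test between genotypes, and all intervals are 95% intervals that cover counting error only. The only view of animal-to-animal spread comes from WT mouse 1 and WT mouse 2, told apart by their hashtag antibodies.

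After filtering, 14722 WT and 43162 A20ZF7 barcodes were kept. Classes were assigned by clustering without the class II genes and are called X-like from their markers. Levels are counts of unique molecular identifiers (UMIs) scaled to 1000000 UMIs of a class (CPM). Each molecule is counted once at its 5′ end, so a CPM is not divided by gene length, and shares of a gene are compared between classes rather than levels between genes. Median depths ran from 815 UMIs per barcode in T-like to 3781 in epithelial-like barcodes of WT. In A20ZF7 they ran from 641 in T-like to 1716 in conventional dendritic-like barcodes, and epithelial-like barcodes were at 903. The libraries share 1042 barcode sequences, beside 979 expected if they were drawn independently. Over all kept barcodes, the level of Tnfaip3 itself was 557 CPM for WT and 1025 CPM for A20ZF7. Since the mutation leaves the transcript in place, this count does not check the genotype. The libraries also differ in their mix of classes, with T-like barcodes at 14.5% of WT and 33.3% of A20ZF7. The part of this mix in the Tnfaip3 levels was not tested.

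MHC class II molecules present peptides from endocytosed proteins to CD4+ T cells. An α chain and a β chain form the peptide-binding molecule: H2-Aa and H2-Ab1 encode those of I-A, and H2-Eb1 encodes the β chain of I-E. On GRCm38, H2-DMa (chr17:34119541-34139101), H2-DMb1 (chr17:34153072-34160230), H2-Ab1 (chr17:34257689-34269419), H2-Aa (chr17:34282744-34287823) and H2-Eb1 (chr17:34305867-34316674) lie together on chromosome 17, and Ciita lies at chr16:10480059-10528418. Cd74 encodes the invariant chain, which fills the groove and guides the molecule to endosomes. H2-DMa and H2-DMb1 encode H2-DM, which exchanges the remnant of the invariant chain for peptide, and Ciita encodes the transactivator that class II transcription depends on. Dendritic cells, macrophages and B cells make class II constitutively. Interferon γ can induce it in epithelium, endothelium and stroma, and intestinal group 3 ILCs of the lymphoid tissue inducer (LTi) type are known to carry it as well.

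Class II promoters share a conserved module of X and Y boxes, on which RFX, CREB and NF-Y factors assemble and to which CIITA is recruited. The promoters of 3 members that differ in role are shown because the letters of that module can be seen in each of them. RefSeq promoter sequences (GRCm38.p6, 250 bases before to 50 after the start) were found for 4 of the 7 members, and none were found for H2-Ab1, Cd74 and Ciita. Capitals mark the Y box core GATTGG and the X2 box letters TGATGA on either strand. The sequences are H2-Aa (chr17:34287774-34288073, minus strand), H2-Eb1 (chr17:34305617-34305916, plus strand) and H2-DMb1 (chr17:34152941-34153240, plus strand), each written 5′ to 3′ along its gene.
H2-Aa: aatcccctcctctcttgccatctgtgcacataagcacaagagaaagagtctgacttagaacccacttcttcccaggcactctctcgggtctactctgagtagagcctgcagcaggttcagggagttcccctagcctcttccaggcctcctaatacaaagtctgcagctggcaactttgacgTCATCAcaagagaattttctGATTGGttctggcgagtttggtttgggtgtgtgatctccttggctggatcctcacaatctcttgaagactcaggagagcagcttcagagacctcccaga
H2-Eb1: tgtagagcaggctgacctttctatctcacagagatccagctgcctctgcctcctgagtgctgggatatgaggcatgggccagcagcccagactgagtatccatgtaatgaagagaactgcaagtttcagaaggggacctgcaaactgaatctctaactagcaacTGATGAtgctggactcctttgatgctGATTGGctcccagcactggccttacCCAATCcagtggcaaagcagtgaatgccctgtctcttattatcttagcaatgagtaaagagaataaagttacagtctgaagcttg
H2-DMb1: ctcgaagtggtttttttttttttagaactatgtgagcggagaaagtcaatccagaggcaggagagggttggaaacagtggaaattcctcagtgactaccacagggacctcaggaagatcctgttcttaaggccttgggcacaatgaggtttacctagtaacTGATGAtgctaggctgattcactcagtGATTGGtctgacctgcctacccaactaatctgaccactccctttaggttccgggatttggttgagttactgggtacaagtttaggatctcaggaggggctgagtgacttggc

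The Y box core began 49 bases before the start in H2-Aa, 60 in H2-Eb1 and 62 in H2-DMb1, with the X2 letters 69, 86 and 89 bases before it. H2-Eb1 held a further Y box core on the other strand, 35 bases before the start. Of the 2 RefSeq promoters of H2-DMa, 1 held the Y box core, 199 bases before the start, and neither held the X2 letters. Among 32851 promoters of the same length, 16.1% held the Y box core, 12.4% the X2 letters and 1.83% both. These matches describe letters only.

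By clusters, class II RNA was highest in conventional dendritic-like barcodes, a cluster led by H2-Ab1, H2-Aa, H2-Eb1, Apol7c, Cd74, Cst3 and Wdfy4. Summed over the 7 genes, its level was 32570 CPM (30784 to 34432, 15 barcodes) in WT and 24913 CPM (24260 to 25579, 116 barcodes) in A20ZF7. Macrophage-like barcodes, marked by C1qa, C1qb, C1qc and Lyz2, followed at 24054 CPM (23339 to 24786, 118 barcodes) in WT and 13736 CPM (13522 to 13953, 745 barcodes) in A20ZF7. Siglech+ dendritic-like barcodes, with leading genes Siglech, Ly6d, Irf8 and Cox6a2, held 8259 CPM (7777 to 8763, 72 barcodes) in WT and 8983 CPM (8616 to 9361, 222 barcodes) in A20ZF7. The order of these 3 classes by clusters was the same in both libraries, and no interval overlapped its neighbour's. By marker counts alone, undivided dendritic barcodes of WT held 20334 CPM (18602 to 22183), below 29966 CPM (29024 to 30930) in macrophage barcodes. With free RNA, described below, taken off by the median of marker lists, WT conventional dendritic-like barcodes were at 34582 CPM and macrophage-like at 48857 CPM. By the minimum of those lists they were at 32570 and 26011 CPM. In A20ZF7 macrophage levels stayed below these dendritic levels in each case.

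Below them the order differed between the libraries. In WT, epithelial-like barcodes held 3145 CPM (3071 to 3221), plasma-like barcodes 1363 CPM (1309 to 1418) and endothelial-like barcodes 509 CPM (458 to 565). In A20ZF7 these classes held 1372 CPM (1262 to 1489), 1029 CPM (996 to 1062) and 1077 CPM (1033 to 1123), so that the plasma-like and endothelial-like intervals overlapped. The remaining classes lay lower in both libraries, apart from a mast-like class of 5 WT and 36 A20ZF7 barcodes that held 3 and 2 class II UMIs and is left out of the comparisons. WT values were 295 CPM in ILC3-like, 208 in ILC2-like, 179 in smooth muscle-like, 174 in fibroblast-like and 164 in T-like barcodes, and the last 3 intervals overlapped. A20ZF7 values were 524 CPM in ILC2-like, 425 in smooth muscle-like, 293 in T-like, 287 in ILC3-like and 257 in fibroblast-like barcodes, with overlapping intervals for T-like and ILC3-like.

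**Figure D1:**
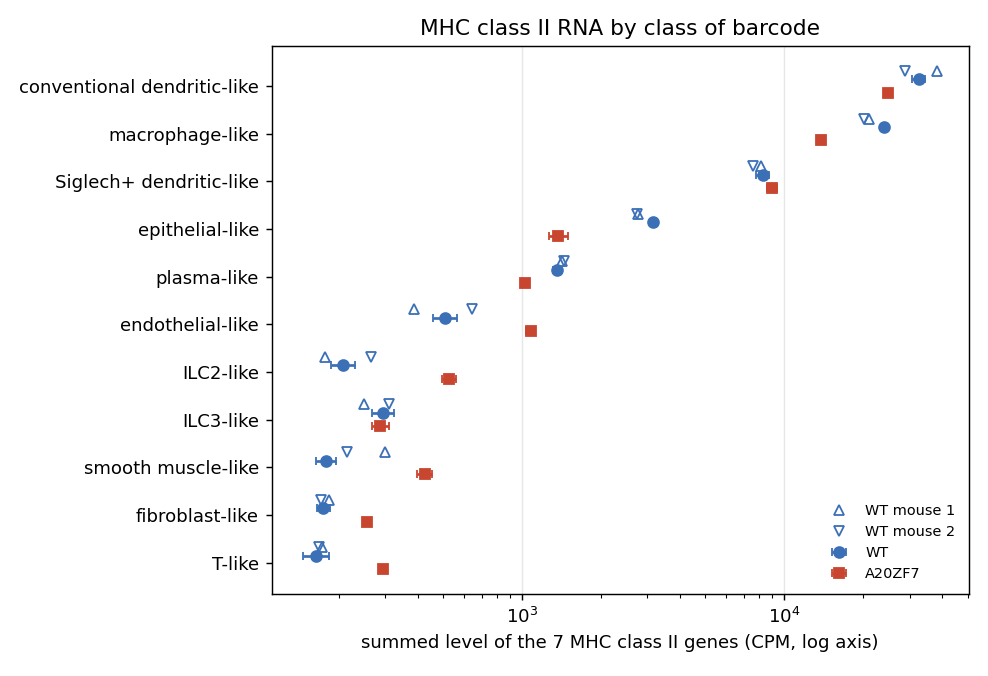
Summed level of the 7 class II genes (CPM, log axis) in each class of barcode. Filled points are the WT and A20ZF7 libraries with 95% counting intervals, and open triangles are WT mouse 1 and mouse 2. The dendritic-like and macrophage-like classes lie above all other classes in both libraries, and T-like barcodes lie at 164 and 293 CPM.

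T cells of the mouse do not make class II in quantity, so the T-like class serves as the background against which low levels are read. Free RNA, taken from barcodes with 10 to 100 UMIs, contained class II RNA at 1368 CPM (1316 to 1422) in WT and 1236 CPM (1174 to 1300) in A20ZF7. Cd74 made up 56.6% of the class II UMIs of this free RNA in WT and 54.2% in A20ZF7. H2-DMa made up 1.89% and 2.28%. In T-like barcodes the corresponding shares were 53.1% and 52.0% for Cd74 but 14.4% (10.7 to 18.7) and 9.49% (8.50 to 10.5) for H2-DMa. H2-DMa in T-like barcodes, 23.5 CPM in WT and 27.8 CPM in A20ZF7, was therefore a larger part of class II UMIs than in free RNA of the same library.

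The classical chains H2-Aa, H2-Ab1 and H2-Eb1 followed the summed level. In conventional dendritic-like barcodes H2-Aa was at 6210 CPM in WT and 4745 CPM in A20ZF7, H2-Ab1 at 5503 and 4145 CPM, and H2-Eb1 at 4454 and 3634 CPM. In macrophage-like barcodes H2-Aa was at 4379 and 2654 CPM, H2-Ab1 at 3581 and 2163 CPM, and H2-Eb1 at 3384 and 2070 CPM. By clusters, all 3 chains were higher in the conventional dendritic-like than in the macrophage-like class of the same library. By marker counts alone, with dendritic barcodes as 1 class, WT went the other way. H2-Aa was at 3970 CPM in dendritic and 5293 CPM in macrophage barcodes, H2-Ab1 at 3369 and 4612 CPM, and H2-Eb1 at 1725 and 4385 CPM. In A20ZF7 all 3 chains stayed higher in dendritic barcodes, with H2-Aa at 5211 and 4138 CPM. Siglech+ dendritic-like barcodes of WT had other shares of class II UMIs than conventional dendritic-like ones. H2-Eb1 was at 9.15% (7.51 to 11) against 13.7% (11.8 to 15.7), and H2-Ab1 at 12.7% (10.80 to 14.84) against 16.9% (14.85 to 19.1). Cd74 was higher, at 56.4% (53.4 to 59.3) against 46.9% (44.1 to 49.7). In A20ZF7 the corresponding shares were 11.8% against 14.6% for H2-Eb1, 12.4% against 16.6% for H2-Ab1 and 50.7% against 46.9% for Cd74.

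Cd74, the invariant chain, supplied 46.9% of class II UMIs in conventional dendritic-like barcodes of either library, 49.8% in macrophage-like barcodes of WT and 46.9% in those of A20ZF7. Plasma-like barcodes stood apart. Their Cd74 level was 1198 CPM in WT and 770 CPM in A20ZF7, which was 87.9% (86.5 to 89.2) and 74.9% (73.4 to 76.2) of their class II UMIs. H2-Aa in these barcodes was at 29.3 and 62.4 CPM, H2-Ab1 at 66.6 and 101 CPM, and H2-Eb1 at 50.8 and 69.7 CPM. Plasma cells descend from B cells and are known to shut off class II genes as they mature. The larger share of Cd74 was seen in both libraries.

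**Figure D2:**
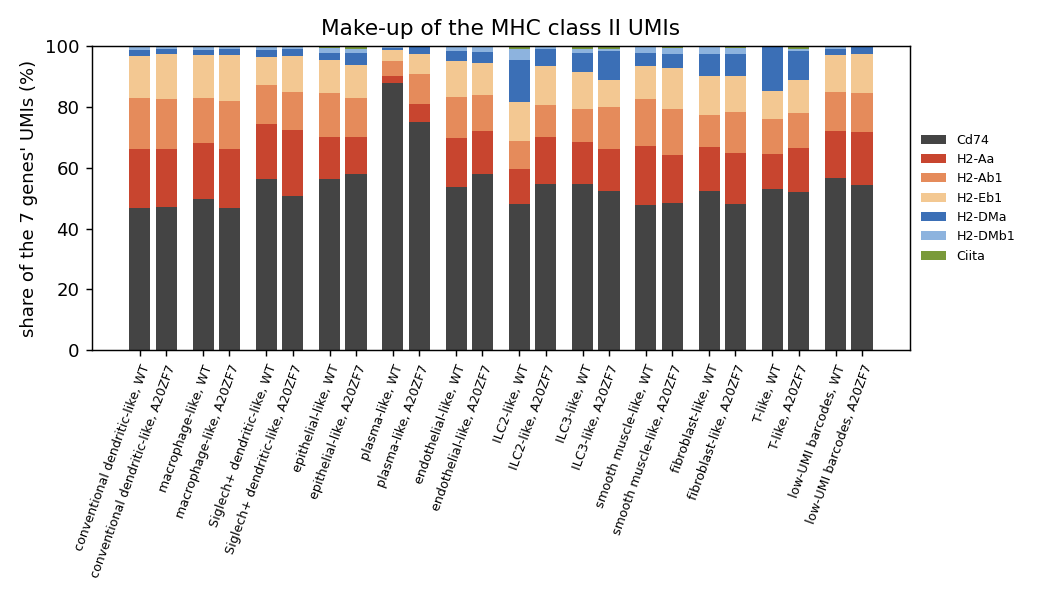
Share of each gene (percent) among the class II UMIs of each class of barcode and of free RNA, in both libraries. Plasma-like barcodes have the largest share of Cd74, 87.9% in WT and 74.9% in A20ZF7, and T-like barcodes have more H2-DMa than free RNA does.

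The peptide exchange subunits and the transactivator were counted at lower levels. H2-DMa was at 707 CPM in WT and 451 CPM in A20ZF7 in conventional dendritic-like barcodes and at 410 and 264 CPM in macrophage-like barcodes. H2-DMb1 was at 288 and 167 CPM in the former and 236 and 108 CPM in the latter. Ciita was counted 5 times in WT and 18 times in A20ZF7 among conventional dendritic-like barcodes (131 and 81.3 CPM), and 13 and 43 times among macrophage-like barcodes (73.1 and 37.6 CPM). In Siglech+ dendritic-like barcodes it was counted 0 times in WT, which by the one-sided limit allows up to 3 UMIs of 132341, and 9 times in A20ZF7. Outside these classes the clearest Ciita count was in epithelial-like barcodes of WT, with 39 UMIs (18.0 CPM) against 5 (12.0 CPM) in A20ZF7.

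No cluster had the markers of B cells. Only 13 WT and 18 A20ZF7 barcodes held 2 or more of 8 B cell markers, and their class II level was 6718 CPM (5702 to 7863) and 6535 CPM (5686 to 7474). These intervals overlap. By cluster, the WT barcodes were 5 smooth muscle-like, 2 macrophage-like, 2 fibroblast-like, 2 plasma-like, 1 endothelial-like and 1 unnamed, and those of A20ZF7 included 7 plasma-like, 3 macrophage-like and 1 conventional dendritic-like, so the level mixes barcodes of several classes and is not that of a B cell class.

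By number of molecules, the sources of class II RNA differed between the libraries. Of 20586 class II UMIs in WT, 33.1% were in epithelial-like, 20.8% in macrophage-like, 11.7% in plasma-like and 6.04% in conventional dendritic-like barcodes. Of 45526 in A20ZF7, 34.5% were in macrophage-like, 12.1% in conventional dendritic-like and 1.25% in epithelial-like barcodes. Epithelial-like barcodes were 3.95% of all barcodes in WT and 0.744% in A20ZF7, and macrophage-like barcodes 0.802% and 1.73%. The leading source in WT rests on barcodes without a hashtag call, which held 4844 of the 6813 epithelial-like UMIs. In WT mouse 1 macrophage-like barcodes held 1289 and epithelial-like barcodes 1035 class II UMIs, and in WT mouse 2 they held 1330 and 934. The negative selection before capture can set such shares, and its part in them was not tested.

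Surface protein was measured on the WT barcodes with an antibody listed as IA, directed at class II molecules. Its median was 87.5 UMIs per barcode (quartiles 46.5 and 153.8) in macrophage-like and 84.0 (29.5 and 120.0) in conventional dendritic-like barcodes, against 3 (2 and 6) in T-like barcodes. Siglech+ dendritic-like barcodes had a median of 8 (5 and 16), although their class II RNA was at 8259 CPM. Epithelial-like barcodes had a median of 4 (2 and 7), close to that of T-like barcodes, at an RNA level of 3145 CPM. In antibody UMIs per barcode these classes ranked differently than by RNA. Endothelial-like barcodes, with 509 CPM of RNA, had an antibody median of 6 (3 and 13). Their total of all antibodies was also the highest, 3253 UMIs against 1669 in T-like barcodes, and this ranking is not corrected for that total. The antibody files of the A20ZF7 library are identical to those of WT and were not used.

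Within the classes of low RNA, barcodes with class II UMIs carried more antibody. Among ILC3-like barcodes of WT, the 22 with 5 or more class II UMIs had a median of 35.0 (18.0 and 72.5) antibody UMIs, against 3 (1.5 and 6) in the 1083 with none. Among endothelial-like barcodes the 118 with a class II UMI had a median of 13.0 and the 364 without had 6. Smooth muscle-like and fibroblast-like barcodes with 5 or more class II UMIs (24 and 46 barcodes) had medians of 22 and 25, against 3 and 3 without any. The 7 ILC2-like barcodes with 5 or more had a median of 25, against 2 without any. T-like barcodes, the background class, showed the same pattern, with a median of 24 in the 5 barcodes with 5 or more and 3 in the 1911 without any. Epithelial-like barcodes did not follow this pattern: the 383 with 5 or more class II UMIs had a median of 4 and the 84 with none had 5. Median RNA depths were 2056.5 and 1561.5 UMIs in the smooth muscle-like and fibroblast-like barcodes with 5 or more, and 1181 and 1107 without any. Their WT levels of 179 and 174 CPM were 95.7 and 121 CPM without barcodes holding any of 17 macrophage, dendritic and B cell markers. Doublets within a hashtag were left in, and their part in this pattern was not tested.

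**Figure D3:**
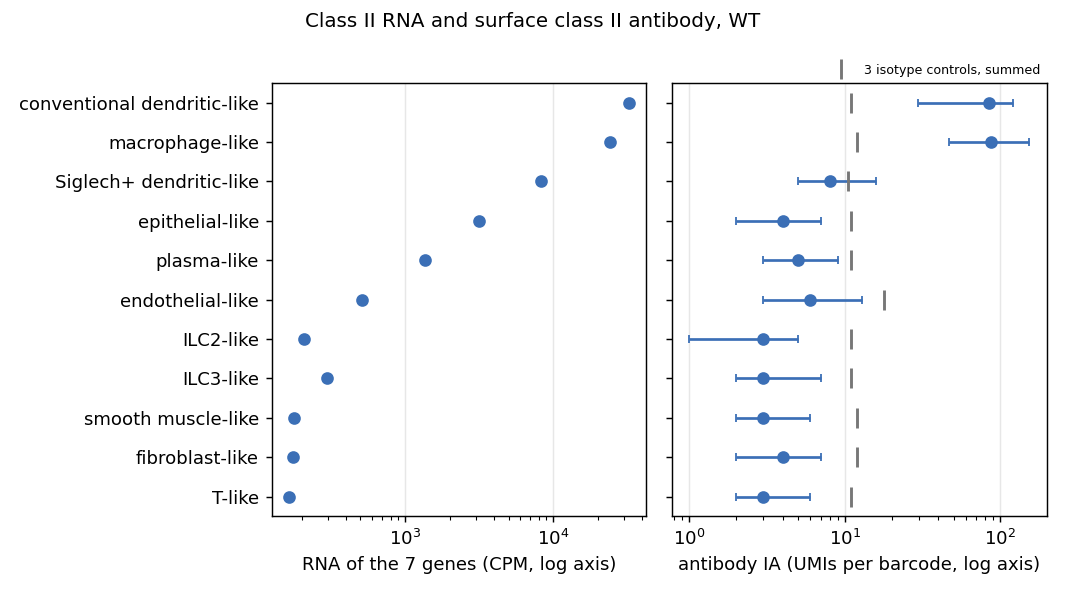
Class II RNA (left, CPM, log axis) and the class II antibody (right, UMIs per barcode, log axis, medians with quartiles) in each class of WT barcodes. Grey ticks are medians of 3 isotype control antibodies summed. Macrophage-like and conventional dendritic-like barcodes exceed the controls, while epithelial-like barcodes, next in RNA after the Siglech+ dendritic-like class, do not.

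Between genotypes, class II RNA was lower in the macrophage-like class of A20ZF7. The ratio of A20ZF7 to WT was 0.571 (0.552 to 0.591) for the sum, and all 7 genes had ratios below 1, from 0.459 for H2-DMb1 to 0.643 for H2-DMa. The interval of Ciita, 0.272 to 1.04, did not leave out 1. Its clusters were mixed in different proportions: a cluster led by C1qc, Lyz2 and Apoe held 66.9% of the class in WT and 47.7% in A20ZF7, and one led by C1qb, H2-Aa and Tyrobp held 31.4% and 44.3%. Within the first the levels were 31676 and 22643 CPM, a ratio of 0.715 (0.687 to 0.744), and within the second 12314 and 9363 CPM, a ratio of 0.760 (0.707 to 0.818). WT mouse 1 was at 20981 CPM and mouse 2 at 20166 CPM, while the 41 macrophage-like barcodes without a hashtag call were at 32871 CPM, so the class was lower in A20ZF7 than in each WT mouse but by less than the pooled ratio.

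For conventional dendritic-like barcodes the ratio of the sum was 0.765 (0.719 to 0.814), and the ratios of the 7 genes ran from 0.580 to 0.816. It rests on 15 WT barcodes, of which 4 came from mouse 1 (38133 CPM) and 8 from mouse 2 (28762 CPM). Assignment of barcodes by marker counts alone gives a single dendritic class, in which 13 WT and 25 A20ZF7 barcodes held 20334 and 27681 CPM, a ratio of 1.36 (1.23 to 1.51). The conventional and Siglech+ dendritic-like clusters pooled were at 13700.5 and 16441 CPM, a ratio of 1.2 (1.15 to 1.26), so the direction depends on how dendritic barcodes are divided. With free RNA taken off, scaled by the median of marker lists of other classes, the ratio was 1.11 (1.04 to 1.18), and scaled by their minimum it was 0.784. Siglech+ dendritic-like barcodes had a ratio of 1.09 (1.01 to 1.17), with H2-Aa at 1.31 (1.11 to 1.56) and H2-Eb1 at 1.40 (1.11 to 1.79) but Cd74 at 0.978 (0.886 to 1.08). The ratio of the sum was 0.976 without Scrublet doublets and 0.991 with mitochondrial, ribosomal and immunoglobulin genes left out of the total.

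Macrophage and dendritic markers moved with these levels in the macrophage-like and conventional dendritic-like classes, but not in the Siglech+ dendritic-like class. The summed level of 17 markers of macrophages, dendritic cells and B cells was 8741 CPM in macrophage-like barcodes of WT and 4585 CPM in those of A20ZF7, with 4 and 0 of the 17 at 0. In conventional dendritic-like barcodes it was 3433 and 1025 CPM, with 8 and 2 at 0. For Siglech+ dendritic-like barcodes it was 650 and 294 CPM, with 10 and 7 at 0, beside a class II ratio of 1.09. The part of these markers in the class II ratios was not tested.

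The epithelial-like class, marked by Fabp1, Apoa1, Reg3b and Rbp2, had a ratio of 0.436 (0.40 to 0.475), and 5 of its 6 members with enough UMIs were called lower, where called means a change of at least 2-fold with an interval that leaves out 1 among genes with at least 20 UMIs and 50 CPM. Of all genes in that class 18.9% were called lower and 31% higher, and the median ratio over all 4128 genes tested was 1.27, so the count is read against a broad shift in this class. The class consisted of a deep cluster that held 498 WT and 79 A20ZF7 barcodes and a shallow one that held 83 and 242. Median depth in the deep cluster was 4151 UMIs in WT and 1986 in A20ZF7, and the part of depth in the ratios was not tested. The shallow cluster was 14.3% of the class in WT and 75.4% in A20ZF7, so the class ratio mixes the clusters in different proportions. Epithelial genes led both. In the shallow cluster Cd3e, Cd3d, Cd3g, Trac and Trdc had a mean log2 fold of 0.273 over other A20ZF7 clusters. In the deep cluster this value, taken in WT, was -1.71. Whether the shallow cluster holds T cells was not tested. In the deep cluster class II RNA was at 3267 and 2153 CPM, a ratio of 0.659 (0.594 to 0.729), and 0 of 6 members were called, beside 12.1% of all genes called lower and 21% called higher. In the shallow cluster class II RNA was at 512 and 746 CPM, a ratio of 1.46 (1.06 to 2.04), on 49 WT UMIs. These came from mouse 1 (4 UMIs, 213 CPM), mouse 2 (18 UMIs, 418 CPM) and barcodes without a call (27 UMIs, 799 CPM), and the interval of the last, 526 to 1162 CPM, holds the A20ZF7 level. WT mice 1 and 2 were at 2889 and 3062 CPM in the deep cluster, both above A20ZF7.

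Endothelial-like barcodes, in contrast, had more class II RNA in A20ZF7. The ratio was 2.11 (1.89 to 2.37) for the sum and 2.28 (1.95 to 2.67) for Cd74, and 1 of 4 members was called higher, beside 6.2% of all genes. Against WT mouse 2 alone the ratio of the sum was 1.68, and against WT mouse 1 alone it was 2.79. Of its 3 clusters, the ratio was largest in one led by Madcam1, Selp, Lrg1 and Ackr1, genes of the venules through which lymphocytes enter the gut wall. There the sum was at 625 CPM (198 barcodes) in WT and 1777 CPM (360 barcodes) in A20ZF7, a ratio of 2.84 (2.45 to 3.32), and 4 of 5 members were called higher, beside 7.19% of all genes. H2-Aa was at 103 and 245 CPM, H2-Ab1 at 97.1 and 191 CPM, H2-Eb1 at 60.7 and 168 CPM and Cd74 at 349 and 1075 CPM. H2-DMa was counted 3 times in WT and 36 times in A20ZF7, a ratio of 6.87 (2.17 to 34.9). WT mouse 1 was at 488 CPM and mouse 2 at 820 CPM in this cluster, both below A20ZF7.

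The other endothelial-like clusters showed the same direction. A cluster led by Fabp4, Flt1, Cd36 and Kdr, as in capillaries, was at 417 CPM in WT and 840 CPM in A20ZF7, a ratio of 2.01 (1.69 to 2.42), and its H2-DMa was at 23.7 and 30.1 CPM, with an interval of the ratio from 0.586 to 3.15. A lymphatic cluster with Ccl21a, Mmrn1 and Lyve1 held 7 class II UMIs in 23 WT barcodes and 130 in 158 A20ZF7 barcodes. Without barcodes that held any of the 17 macrophage, dendritic and B cell markers, which removed 6.43% of the endothelial-like barcodes of WT and 7.63% of A20ZF7, the ratio of the class was 2.61 (2.26 to 3.02) and that of the Madcam1+ cluster 3.66 (3.05 to 4.43). The class II UMIs that free RNA could supply to WT endothelial-like barcodes ran from 53.7 by the minimum to 545 by the median of marker lists, beside 354 counted, so that by the median none were left and no ratio could be formed. By the minimum the ratio was 2.33 (2.07 to 2.64).

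The background class moved in the same direction, and the higher values in low classes have to be set beside it. Doublets called by 2 hashtags were removed in WT only, and the part of this difference in the ratios of low classes was not tested. In T-like barcodes the ratio was 1.79 (1.6 to 2.02), with H2-Aa at 2.32, H2-Eb1 at 2.11 and Cd74 at 1.75, while H2-DMa had a ratio of 1.18 (0.866 to 1.65). The 17 macrophage, dendritic and B cell markers moved with it, from 37.9 CPM in WT to 73.3 CPM in A20ZF7, and 2.99% and 5.24% of T-like barcodes held one, with 6 and 2 of the 17 at 0. Their part in the T-like ratio was not tested, although without the barcodes that held one the ratio was 1.80. The T-like clusters were mixed in different proportions, and the one with the largest share of the class in A20ZF7 held 35.5% of its barcodes there and 6.78% in WT. Relative to T-like barcodes of the same library, the endothelial-like level was 3.11 times as high in WT and 3.67 times in A20ZF7. For smooth muscle-like barcodes these values were 1.09 and 1.45, for ILC2-like 1.27 and 1.79, and for fibroblast-like 1.06 and 0.875.

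**Figure D4:**
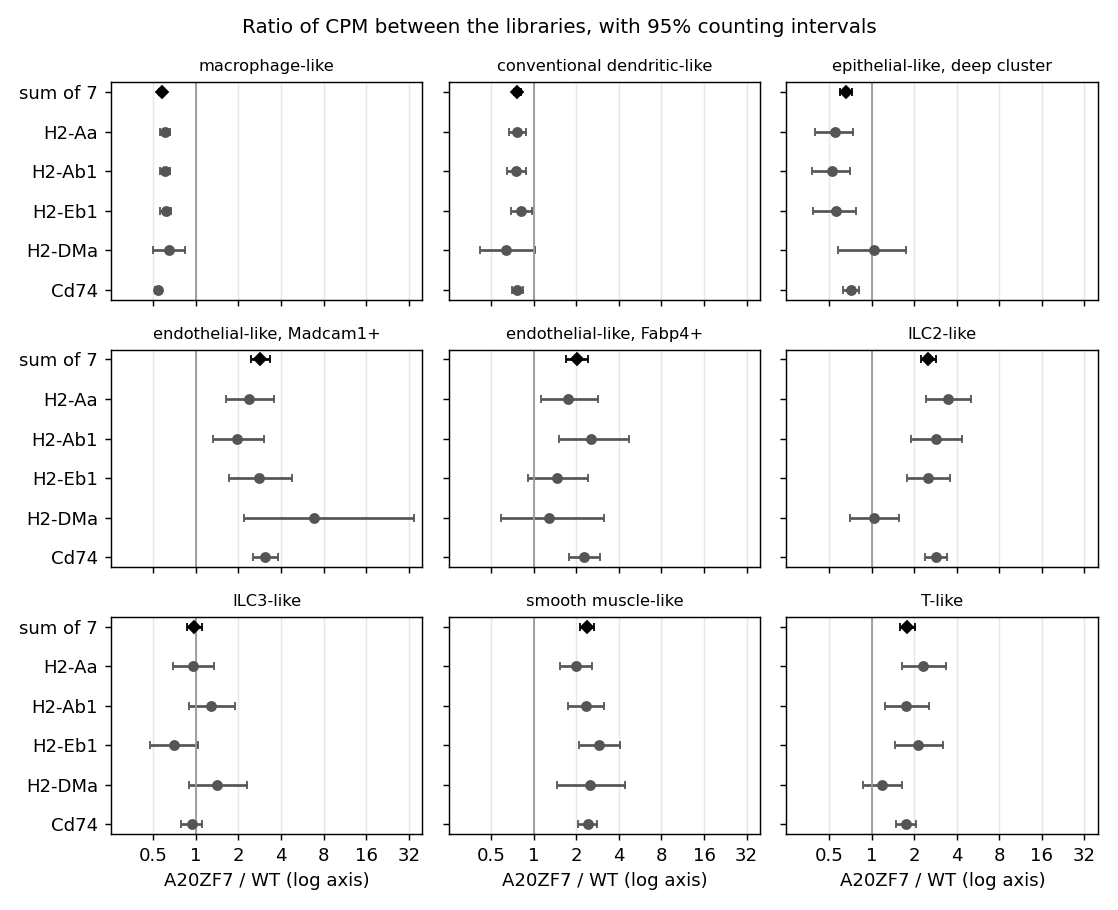
Ratio of A20ZF7 to WT (log axis, 95% counting intervals) for the summed members (diamonds) and for 5 members with enough UMIs (circles) in 9 classes or clusters. The summed ratio is below 1 in the macrophage-like class (0.571), the conventional dendritic-like class (0.765) and the deep epithelial-like cluster (0.659), it is 2.84 in the Madcam1+ endothelial-like cluster and 2.52 in the ILC2-like class, and T-like barcodes have a ratio of 1.79 for the sum.

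Smooth muscle-like barcodes had a ratio of 2.38 (2.13 to 2.66), and 3 of 4 members were called higher, beside 7.35% of all genes. Their WT level was 300 CPM in mouse 1 and 214 CPM in mouse 2, and 136 CPM in barcodes without a call, which were 1380 of 1944, so that the ratio was 1.42 against mouse 1 alone and 1.98 against mouse 2 alone. Fibroblast-like barcodes had a ratio of 1.47 (1.38 to 1.57), with WT mice at 184 and 171 CPM. The largest fibroblast-like cluster differed between the libraries. That of A20ZF7, led by Sfrp1, Mfap4 and Adamdec1, held 9.64% of the class in WT and 51.7% in A20ZF7, at 144 and 236 CPM. That of WT, led by Mfap4 and Mgp, held 33.4% in WT and 0.556% (70 barcodes) in A20ZF7. Its levels were 162 and 167 CPM, with an interval of the ratio from 0.527 to 1.82.

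ILC2-like barcodes, marked by Il13, Il4, Il17rb and Gata3, had 208 CPM in WT and 524 CPM in A20ZF7, a ratio of 2.52 (2.23 to 2.85). All 4 members with enough UMIs, H2-Aa, H2-Ab1, H2-Eb1 and Cd74, were called higher, beside 4.22% of all genes. H2-DMa did not share this change, at 28.7 and 29.8 CPM, a ratio of 1.04 (0.698 to 1.55). The class was made of different clusters in the libraries, one of which held 65.0% of its WT and 1.84% of its A20ZF7 barcodes. Within the 4 clusters the ratios ran from 1.98 to 3.15, and all 4 intervals lay above 1. Some of these ratios rest on few counts. The cluster with 1.84% of the A20ZF7 barcodes had 37 of them there. Another held 3 class II UMIs in WT mouse 1, 0 in mouse 2 and 4 in WT barcodes without a call. WT mice were at 176 and 264 CPM, and the ratio was 1.99 against mouse 2 alone and 2.98 against mouse 1 alone. In A20ZF7 the shares of Cd74 and H2-DMa among class II UMIs, 54.6% and 5.69%, lay nearer to those of free RNA than in WT, where they were 48.2% and 13.8%.

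ILC3-like barcodes held 295 CPM in WT and 287 CPM in A20ZF7, a ratio of 0.973 (0.862 to 1.10) whose interval holds 1. The ratio was 0.775 (0.697 to 0.863) with the study's limits alone and 1.34 (1.15 to 1.57) when barcodes were assigned by marker counts, so no direction is read from it. Within the class, WT barcodes with 2 or more LTi markers (43 barcodes) held 726 CPM (514 to 996), and none of them held any of the 17 macrophage, dendritic and B cell markers. WT barcodes with Ncr1 and fewer LTi markers (108 barcodes) held 149 CPM (89.8 to 233). In A20ZF7 the corresponding levels were 265 CPM (159 to 413, 56 barcodes) and 317 CPM (214 to 452, 111 barcodes), and 12.5% of the former held such a marker. A cluster led by Klrb1b, Nrgn and Fcer1g was at 714 CPM in WT and 308 CPM in A20ZF7, but its WT mice differed widely, at 829 and 259 CPM, and only 111 WT UMIs support it. The other 3 ILC3-like clusters had ratios of 1.40 (0.955 to 2.12), 0.903 (0.718 to 1.14) and 1.03 (0.464 to 2.02), and the first of these was at 1.58 (1.02 to 2.57) without barcodes that held any of the 17 markers. The last held 55.5% of the class in WT and 1.89% in A20ZF7, so different clusters made up the class in the libraries.

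Plasma-like barcodes had a ratio of 0.755 for the sum, which was 0.515 with mitochondrial, ribosomal and immunoglobulin genes left out of the total and 1.07 without barcodes that held any of the 17 markers. Their median ratio over 2737 genes tested was 1.76, and 35.8% were called higher and 3.58% lower. Of the 4 members tested, H2-Aa was called higher and 0 were called lower, while Cd74, the member with the most UMIs, had a ratio of 0.643 (0.607 to 0.680). The class was made of 2 clusters in different proportions. One held 29.7% of its WT and 59.8% of its A20ZF7 barcodes, at 761 and 821 CPM, a ratio of 1.08 (0.949 to 1.23), and the other held 70.3% and 40.2%, at 1519 and 1254 CPM, a ratio of 0.826 (0.778 to 0.877). Without barcodes that held any of the 17 markers these ratios were 2.89 (2.02 to 4.29), on 31 WT UMIs, and 0.975 (0.835 to 1.14). That cut was unequal, since it removed 63.7% of the plasma-like barcodes of WT and 38.3% of those of A20ZF7. With or without it, the pooled ratio is not a drop in both clusters.

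The remaining calls were few. In conventional dendritic-like barcodes 0 of 7 members were called, beside 4.98% of genes higher and 2.37% lower, and in Siglech+ dendritic-like barcodes 0 of 6, beside 10.1% and 2.98%. A single member, Cd74, passed the minimum levels in fibroblast-like, ILC3-like and T-like barcodes, and it was not called in any of them. The background was 5.23% higher and 1.94% lower in fibroblast-like, 3.06% and 1.64% in ILC3-like and 3.11% and 1.52% in T-like barcodes. No member was called lower in smooth muscle-like or ILC2-like barcodes, where 2.34% and 2.81% of genes were.

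Shares of barcodes with a class II UMI were compared after thinning each barcode to 500 UMIs. In WT 95.8% of macrophage-like, 91.7% of Siglech+ dendritic-like, 59.6% of epithelial-like and 35.8% of plasma-like barcodes held such a UMI. In A20ZF7 the shares were 93.1%, 93.3%, 29.0% and 32.1%. T-like barcodes gave 6.26% (5.27 to 7.37) in WT and 10.5% (9.96 to 11.1) in A20ZF7. Smooth muscle-like barcodes gave 4.68% and 9.72%, and fibroblast-like 5.32% and 9.40%, at or below the T-like shares, although the level of smooth muscle-like barcodes in A20ZF7 was 1.45 times that of T-like barcodes. Endothelial-like barcodes gave 14.1% (11.1 to 17.5) in WT and 29.1% (26.8 to 31.4) in A20ZF7, and those of the Madcam1+ cluster 17.7% (12.6 to 23.7) and 50.6% (45.2 to 56.0). For ILC2-like barcodes the shares were 8.09% (6.80 to 9.54) and 18.7% (16.9 to 20.6), and for ILC3-like 8.93% and 11.4%. Before thinning, the endothelial-like clusters led by Madcam1 and by Fabp4 gave 32.3% and 18.4% in WT and 71.9% and 35.1% in A20ZF7.

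**Figure D5:**
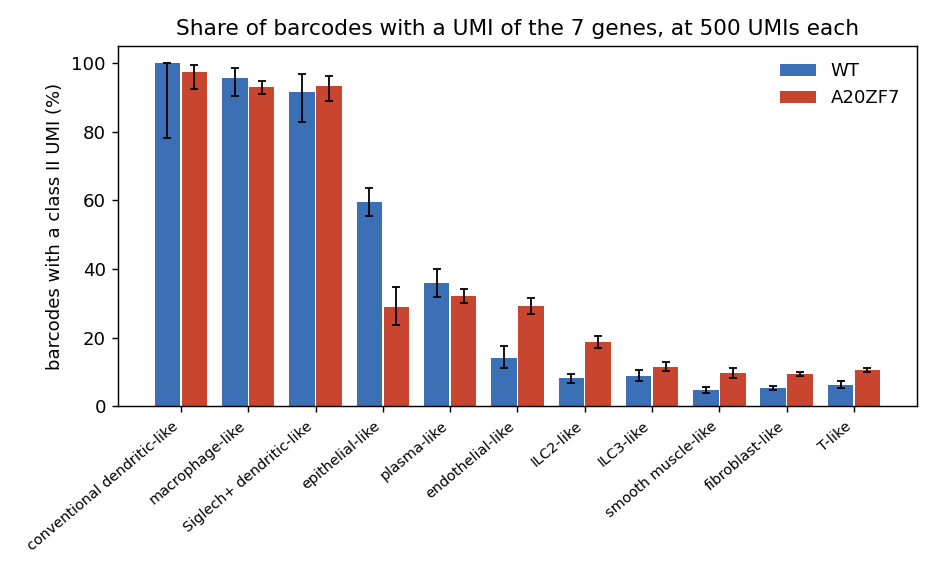
Percent of barcodes with at least 1 class II UMI after thinning to 500 UMIs, with 95% binomial intervals, by class and library. Dendritic-like and macrophage-like barcodes are above 90%, and smooth muscle-like and fibroblast-like shares lie at or below the T-like shares of 6.26% and 10.5%.

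Other genes of the pathway were taken as fixed lists. Among regulators of class II, the RFX subunits Rfx5, Rfxap and Rfxank were sparse, with at most 28 UMIs in macrophage-like and 44 in endothelial-like barcodes of a library, and each interval of their ratios held 1. Irf8, a transcription factor of dendritic cells and macrophages, was at 422 and 231 CPM in macrophage-like barcodes, a ratio of 0.547 (0.422 to 0.717), and Spi1, which encodes the myeloid factor PU.1, was at 191 and 118 CPM, a ratio of 0.618 (0.421 to 0.928). Irf1, a factor induced by interferon γ, was at 208 and 208 CPM there and at 753 and 438 CPM in endothelial-like barcodes, a ratio of 0.583 (0.523 to 0.650). None of these passed the rule for calls in those classes.

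Of 8 genes of peptide processing, all tested in macrophage-like barcodes, 3 were called lower (Ctsb, Ctsd and March1), beside 5.41% of all genes, and 0 higher, beside 5.93%, and 1 of the 7 members, H2-DMb1, was called lower there. March1, which removes class II from the surface, was at 84.3 and 40.2 CPM, and Ctss, the protease that trims the invariant chain, was at 1012 and 614 CPM. In endothelial-like barcodes 1 of the 6 processing genes tested, Ctss, was called higher, at 20.1 and 54.3 CPM, beside 6.2% of all genes. There 0 of the 6 were called lower, beside 5.8% of all genes. In epithelial-like barcodes 1 of the 6 tested was called lower, beside 18.9% of all genes, and 0 higher, beside 31%. It was Ifi30, a lysosomal thiol reductase, at 242 and 65.0 CPM. Of the class I genes listed for comparison, 5 of 8 were called higher in smooth muscle-like barcodes (H2-K1, Tap1, Psmb8, Psmb9 and Nlrc5), beside 7.35% of all genes, and 0 of 8 in endothelial-like barcodes, beside 6.2%. Nlrc5, the transactivator of class I, was at 45.0 and 101 CPM in macrophage-like barcodes, where the ratios of the class II genes were below 1.

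The costimulatory list has 5 genes, of which 0 to 4 could be tested in a class, and Cd274 was the only one called in any of the 11 classes. Cd274, a ligand of the checkpoint receptor PD-1, was called higher in endothelial-like barcodes (41.7 and 99.5 CPM), epithelial-like barcodes (4.62 and 62.6 CPM) and ILC3-like barcodes (31.2 and 87.7 CPM), where 6.2%, 31% and 3.06% of all genes were called higher. Cd86, a costimulatory ligand of dendritic cells and macrophages, was at 524 and 284 CPM in conventional dendritic-like and at 287 and 246 CPM in macrophage-like barcodes. Cxcl9, an interferon γ-induced chemokine, was at 53.2 and 98.1 CPM in endothelial-like and 54.8 and 163 CPM in fibroblast-like barcodes. The other class II genes of the list were sparse: H2-DMb2 was counted 5 and 18 times and H2-Oa 5 and 17 times in conventional dendritic-like barcodes.

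Over 23 points, made of the classes of both libraries, and 13809 genes, genes whose level was among the most like the summed members were Ifi30 (Pearson r = 0.930 of log2 CPM), Themis2 (0.904), March1 (0.901) and Ctss (0.886). Pirb, Mpeg1, Kynu, Cfp and 5031439G07Rik followed, with r from 0.872 to 0.882. The points share libraries and free RNA. Among the members, the correlation with the sum was 0.995 for Cd74 and 0.991 for H2-Ab1, and lowest for Ciita at 0.866. Each member is part of that sum, and Cd74 is its largest part, so these values are partly fixed in advance.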

How the data were processed

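Single-cell RNA-Seq and surface antibody libraries were made from small intestinal lamina propria cells of WT and A20ZF7 mice, 1 pool of 2 mice and 60000 collected cells per genotype. The files hold UMI counts per gene or antibody and barcode, deposited by the authors without a filter on barcodes. Per the file headers, Cell Ranger 8.0.0 made the gene expression matrices and 7.1.0 the antibody matrices, while the submitters' processing notes name Cell Ranger 7.1, mm10, R 4.3.3 and Seurat 4.3. The WT matrix lists 33696 genes and the A20ZF7 matrix 32285, of which 31950 IDs are shared and 1905 of those carry another symbol. Shared IDs were used. Totals were 35289432 UMIs in WT and 54587004 in A20ZF7.

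Barcodes were kept at the study's limits (200 to 2500 genes, at most 15% mitochondrial counts) and above an order-of-magnitude UMI threshold of 0.1 times the 0.99 quantile of the expected cells (676 UMIs in WT, 397 in A20ZF7). WT barcodes that HTODemux (quantile 0.99, CLR margin at its default) called for 2 hashtags, 2547 before the limits, were removed. Doublets within a hashtag and in A20ZF7 were left in, and Scrublet (in scanpy 1.11.5) marked 7.32% of WT and 5.07% of A20ZF7 barcodes for an alternative. Hashtags gave no call for 48.6% of WT barcodes. The 3 antibody files of A20ZF7 equal those of WT byte for byte and were left out.

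Both libraries were clustered together in Seurat 5.3.0 (R 4.3.3) on genes found in at least 3 cells, with cell cycle scores regressed out, 2000 variable genes, 30 components and resolution 0.8. The 7 members and their pathway genes were kept out of the variable genes. Myeloid and ILC clusters were clustered again on 1000 genes and 20 components. A class name required a mean log2 fold of at least 0.4 over the other clusters for its marker list, with 20 CPM added, no unrelated list at 0.75 of that mean, at least 3 markers each in 5% of barcodes, and no other list with more of the 10 leading genes. Clusters that missed these limits stayed unnamed. Names rebuilt this way may differ from those of the study.

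UMIs were summed per class and library in Python (3.11.15; pandas 2.3.3, scipy 1.17.1, numpy 2.4.6), and matplotlib 3.10.9 drew the figures. Intervals are exact Poisson for CPM, exact conditional for ratios and exact binomial for shares, and a count of 0 allows up to 3 UMIs. The ratio table and its intervals were tested on simulated data. Free RNA came from barcodes with 10 to 100 UMIs and was scaled in each class by marker lists of other classes. Shares were taken after thinning to 500 UMIs, which leaves out shallower barcodes. The text names the 7 members, the listed pathway genes and the 10 genes most correlated with the summed members in log2(CPM + 10), among genes with at least 100 UMIs. Some genes under this rule and some markers are not reported here.

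The members and lists were chosen with earlier results of these data known. The naming limits, the second round of clustering, the Scrublet limit, the margin for hashtags, the marker counts of the per-barcode gate (at least 3 markers, 2 more than the next class), the rule for calls, the list of 17 markers, the use of the minimum for free RNA and the count of classes at 3 times the T-like level were all set after the data had been seen.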

Additional observations from a re-analysis of the deposited data

Results flagged for a closer look

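The genotype ratio of the summed class II genes went opposite ways in different classes, each against both WT mice, and the difference between classes was not tested. It was below 1 in conventional dendritic-like (0.765), macrophage-like (0.571), plasma-like (0.755) and epithelial-like barcodes (0.436). It was above 1 in Siglech+ dendritic-like (1.09), endothelial-like (2.11), smooth muscle-like (2.38), fibroblast-like (1.47), ILC2-like (2.52) and T-like barcodes (1.79). The directions in the conventional dendritic-like, Siglech+ dendritic-like and plasma-like classes were reversed under some other settings, given below. Within the epithelial-like class, the deep cluster had a ratio of 0.659 and the shallow cluster a ratio of 1.46, also without a test of the difference. The latter rests on 49 WT UMIs, at 213 CPM in mouse 1, 418 CPM in mouse 2 and 799 CPM in barcodes without a call, beside 746 CPM in A20ZF7. In the plasma-like class the ratios of its clusters were 1.08 and 0.826. Barcodes of clusters without a class name, which enter no comparison of classes, held class II RNA at 2221 CPM (2114 to 2332, 1623 UMIs) in WT and 1043 CPM (1015 to 1070, 5584 UMIs) in A20ZF7, above the T-like levels of 164 and 293 CPM.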

How the results depend on the processing

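No paired analysis was possible because each genotype is 1 library of pooled mice and the result comes from no test. The direction of the ratio was kept in 11 of 11 classes with all gene IDs, with the study's limits alone, with 1 UMI threshold and against WT mouse 2 alone. It was kept in 10 of 11 at resolution 1.2, with the other total, with the minimum for free RNA and against WT mouse 1 alone, in 9 of 11 without Scrublet doublets, in 8 of 9 by the per-barcode gate (its single dendritic class, at 1.36, has no counterpart among the clusters and is not counted), in 7 of 8 with the median for free RNA and in 6 of 8 without marker barcodes. The causes of the changes below were not tested.

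By the per-barcode gate the ratio was 0.702 in macrophage, 0.882 in plasma, 0.680 in epithelial, 2.81 in endothelial, 1.72 in smooth muscle, 2.0 in fibroblast, 1.34 in ILC3 and 1.28 in T barcodes. By that gate 27.6% and 43.5% of the class II UMIs in barcodes with a class name lay in macrophage and dendritic barcodes, beside 34.9% and 58.8% by clusters, where unnamed clusters are left out of the total. With dendritic barcodes as 1 class, 4 classes in WT and 4 in A20ZF7 reached 3 times the T level by the gate, beside 5 and 5 by clusters. With the study's limits alone the ratio was 2.23 in ILC2-like, 0.775 in ILC3-like and 1.41 in T-like barcodes, and those percentages were 39.1 and 59.8. Without Scrublet doublets it was 0.768 in macrophage-like, 0.976 in Siglech+ dendritic-like (reversed), 0.843 in plasma-like, 1.58 in fibroblast-like and 1.59 in T-like barcodes, with 60.3% in A20ZF7. At resolution 1.2 it was 0.812 in plasma-like, 1.58 in fibroblast-like and 1.53 in T-like barcodes, with 36.6% and 63.0%.

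With free RNA taken off by the median of marker lists the ratio was 1.11 in conventional dendritic-like (reversed), 0.403 in macrophage-like, 0.566 in plasma-like, 3.26 in ILC2-like, 0.781 in ILC3-like and 3.61 in T-like barcodes, with 42.9% and 80.1%. It gave no value for endothelial-like, smooth muscle-like and fibroblast-like barcodes, where 4 pairs of class and library were left at or under the floor. By the minimum, chosen after the median had been seen, it was 0.656 in macrophage-like, 3.27 in smooth muscle-like, 1.25 in fibroblast-like, 3.18 in ILC2-like and 1.14 in ILC3-like barcodes, with 36.9% and 63.2%. With mitochondrial, ribosomal and immunoglobulin genes out of the total it was 0.593 in macrophage-like, 0.991 in Siglech+ dendritic-like (reversed), 0.515 in plasma-like and 0.481 in epithelial-like barcodes. Of the settings added after seeing the data, leaving out marker barcodes gave 1.07 in plasma-like (reversed), 2.61 in endothelial-like, 2.91 in smooth muscle-like, 1.75 in fibroblast-like and 2.87 in ILC2-like barcodes, and 1 UMI threshold gave 0.548 in macrophage-like barcodes and 61.0% in A20ZF7. Leaving out marker barcodes removed 63.7% of the plasma-like barcodes of WT and 38.3% of those of A20ZF7.

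Against 1 WT mouse at a time the ratio ran from 0.653 to 0.866 in conventional dendritic-like, 0.655 to 0.681 in macrophage-like, 1.11 to 1.18 in Siglech+ dendritic-like, 0.715 to 0.724 in plasma-like, 0.498 to 0.503 in epithelial-like, 1.68 to 2.79 in endothelial-like, 1.42 to 1.98 in smooth muscle-like, 1.40 to 1.5 in fibroblast-like, 1.99 to 2.98 in ILC2-like, 0.924 to 1.15 in ILC3-like and 1.70 to 1.74 in T-like barcodes. The percentage in WT ran from 44.3 to 45.8, and the classes at 3 times T from 4 to 5. Shares with a class II UMI without thinning and at 1000 UMIs were 24.5% and 22.9% in endothelial-like barcodes of WT and 43.4% and 42.4% in those of A20ZF7. For ILC2-like barcodes they were 14.5% and 14.5% in WT and 30.1% and 26.9% in A20ZF7, and for T-like barcodes 10.7% and 11.8%, and 15.6% and 18.2%. The class II antibody in macrophage-like and both dendritic-like classes over T-like barcodes stayed within its spread as a share of all antibody UMIs. The conventional dendritic-like ratio rests on 15 WT barcodes.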
